A study of Mus musculus with 6 samples.

Results

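The solute carrier (Slc) genes described here are those whose name starts with Slc and a family number and whose deposited signal averaged at least 1 over all 6 livers. Of 275 solute carrier genes among the 14002 listed, 68 fell below that mean and 16 were set aside by name, which left 191 genes. These genes were chosen by their mean signal over both groups, so that level is given as a description only. The difference between the groups was not part of the rule, although 7 of the 191 reached the mean through only 1 of the groups. Just below the threshold lay Slc37a2 and Slc18b1, with mean signals of 0.924 and 0.990, and just above it Slc25a14 and Slc5a1, with 1.06 and 1.11.

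The livers came from 3 LKO mice, which carried a let7b/c2 knockout in hepatocytes, and 3 wild type (WT) mice. All 6 mice were C57BL/6, labelled as 8 weeks old, and ate a high-fat diet of 60% for 8 weeks. The labels do not say whether that age is at the start or the end of the diet. They name no Cre driver, no sex and no littermates, and number the mice within each group without saying what a number shares. Poly(A) messenger RNA of whole liver was sequenced, so the knockout could not be checked on the mature microRNAs.

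Solute carriers are membrane proteins that move small molecules across the plasma membrane or the membranes of mitochondria, lysosomes, Golgi and endoplasmic reticulum, as uniporters, symporters or exchangers. In hepatocytes they take up amino acids, organic anions and cations and trace metals from blood, export glucose and ketone bodies, and link the cytosolic and mitochondrial pools of citrate, malate, aspartate and adenine nucleotides. A few genes carry a carrier's name without being carriers, such as the scaffold genes Slc9a3r1 and Slc9a3r2.

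The microRNAs removed in LKO hepatocytes share the let-7 seed, and known let-7 targets typically hold the seed's complement in the 3′ untranslated region. The mature sequences are shown from RefSeq (GRCm38.p6, chromosome 15, plus strand, chr15:85707325-85707346 and chr15:85706616-85706637), with bases 2 to 8 in capitals.
mmu-let-7b-5p: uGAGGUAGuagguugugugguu
mmu-let-7c-5p: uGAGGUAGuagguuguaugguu
The 8-base site CTACCTCA was found in the longest annotated 3′ untranslated region of 8 of the 191 genes, or 4.19%, against 469 of 10700 tested genes with such a region, or 4.38%. The sites below are from GENCODE M21 transcripts, with the site in capitals, for the called gene that holds it and for the uncalled gene among the 8 whose groups did not overlap.
Slc25a45 (chromosome 19): cccagccctcctgcCTACCTCAgtcatacc
Slc8b1 (chromosome 5): cctgggctctgtgcCTACCTCAaggggagc
Of the 8 genes, 7 had a positive fold change, the median log2 fold change was 0.09, and Slc25a45 was the 1 called gene. Of all 469 tested genes with the site, 270 had a positive fold change and 13 were called, with a median of 0.05. The 150 solute carrier genes without this site or its 7-base forms had a median of 0.05, and all 8691 tested genes without them had -0.01. Of the 14 called genes, Slc25a45 and Slc4a4 held any of these sites, and Slc4a4, with a 7-base site, was lower in LKO.

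Libraries held 8549483 to 10764825 estimated reads over the listed genes. The 191 genes together took 1.43%, 1.23% and 1.36% of the signal in LKO livers 1 to 3, against 1.33%, 1.28% and 1.101% in WT livers 1 to 3. The 10 most abundant genes took 24.2% of LKO replicate 2 and 18.7% to 21.02% of each remaining library. Among 8 hepatocyte markers none was called, with sums of 132504 to 198351 in LKO and 127174 to 160103 in WT. Alb made most of each sum. Of these 8, 7 had a positive and 1 a negative fold change, with a median log2 fold change of 0.38. All 13 Kupffer cell and macrophage markers had positive fold changes and 5 were raised, with sums of 267 to 353 in LKO and 176 to 200 in WT. Every LKO liver thus had more macrophage marker signal than any WT liver. The sums of sinusoidal endothelial markers were 167 to 193 in LKO and 132 to 153 in WT, and none of these 9 was called. Hepatic stellate markers summed to 210 to 229 in LKO and 187 to 211 in WT, so the groups overlapped. Of these 9, 7 had positive and 2 negative fold changes, and none was called. Cholangiocyte markers summed to 91.7 to 119 in LKO and 52.0 to 81.9 in WT, of which Aqp1 and Spp1 made most. Aqp1 was raised, Spp1 and Sox9 were not called at log2 fold changes of 1.02 and -0.29, and Krt19, Krt7, Epcam and Cftr averaged below 1 over all 6 livers and were not tested. Lymphocyte markers summed to 3.01 to 3.42 in LKO and 1.95 to 2.27 in WT. Erythroid markers summed to 871 to 1266 in LKO and 677 to 878 in WT, so the groups overlapped. Of 5 tested, 4 had a positive and 1 (Alas2) a negative fold change, and 1, Hba-a1, was raised. The part of these other cell types in the results below was not tested, and in whole liver a change in the number of cells of a type and a change in RNA per cell cannot be told apart.

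Each gene was tested with limma on log2(signal + 1), with Benjamini-Hochberg adjustment over all 11168 genes tested, and a gene is called raised or lowered in LKO at an adjusted p under 0.05. Fold changes are LKO minus WT on that log2 scale, which understates the change of low genes. The p-values set the difference between the groups against the spread among the livers within a group. Limma draws that spread toward a trend over all tested genes. In LKO livers 8 of the 191 solute carrier genes were raised, against a background of 1.82% of all tested genes raised, and 6 were lowered, against a background of 1.69%. The number raised was 2 to 14 with a library left out and 3 with no variance trend, and the number lowered was 4 to 6 and 4. Leaving out WT replicates 1, 2 and 3 gave 6, 3 and 4 raised genes, and leaving out LKO replicates 1, 2 and 3 gave 14, 4 and 2. The 14 called genes made 7.33% of the 191, where 3.51% of all tested genes were called. Of the 7 genes that reached the mean through 1 group, 3 were called (Slc22a27, Slc22a29 and Slc37a1). With those 7 set aside, 11 of 184 were called, or 5.98%, against 359 of 10891, or 3.30%, of all tested genes with a mean of at least 1 in both groups. The 3 LKO values did not overlap the 3 WT values in 33 genes that were higher and 27 that were lower in LKO, together 31.4% of the 191, against 24.2% of all tested genes. The median log2 fold change was 0.07, against -0.00 over all tested genes, and 146 of the 191 lay within 0.5 of 0. Fold changes as deposited were positive in 119 of the 191 genes, against 5557 of all 11168 tested genes. With library-total scaling they were positive in 97 of the 191. That scaling moved the median of the 191 genes to 0.01 and that of all genes by -0.064.

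The 8 raised genes were Slc39a4, Slc22a7, Slc25a45, Slc38a2, Slc37a1, Slc41a1, Slc13a5 and Slc46a3. The 6 lowered genes were Slc17a8, Slc25a10, Slc22a27, Slc22a29, Slc4a4 and Slc16a7. They fell into 8 of 11 substrate classes, and no class had more than 3 called members. Calls in both directions were found in 4 classes and calls in 1 direction in 4.

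**Figure D1:**
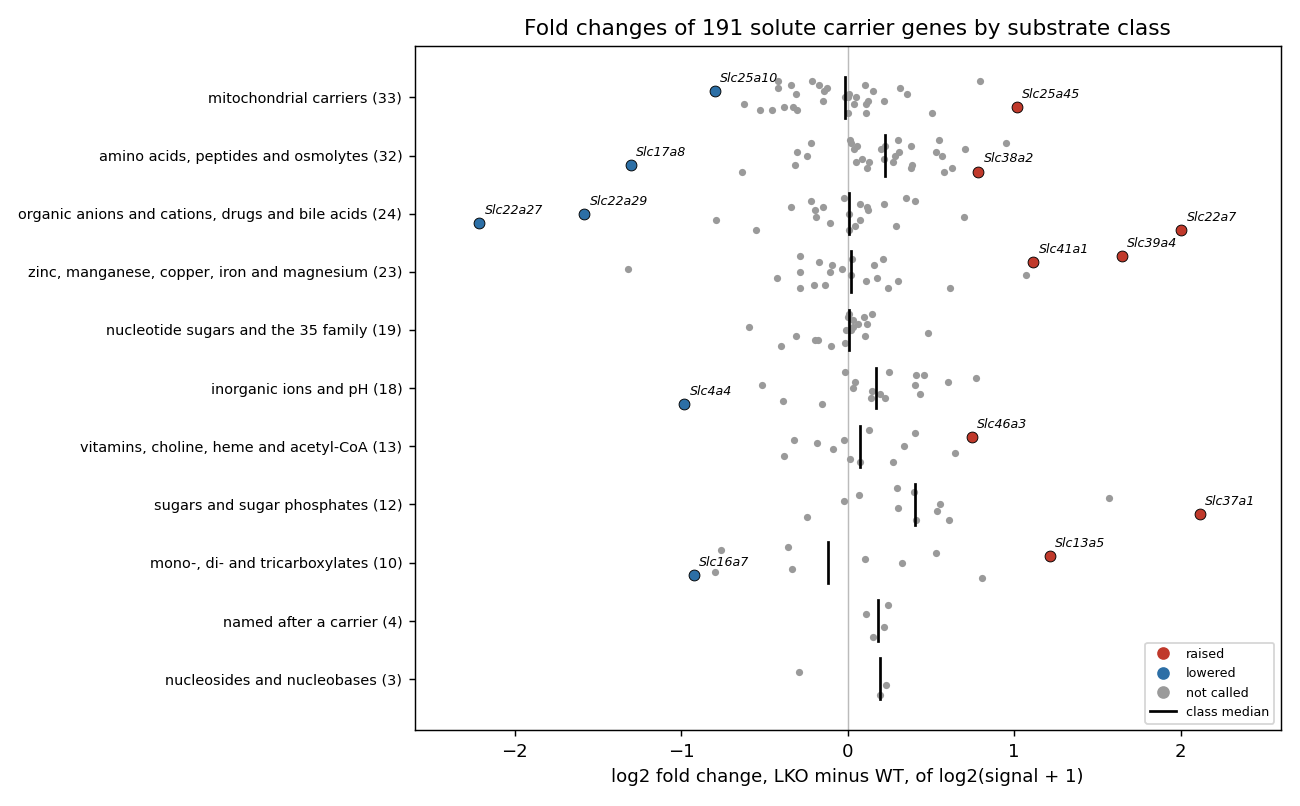
Log2 fold change (LKO minus WT, of log2(signal + 1)) of the 191 solute carrier genes, 1 point per gene, by substrate class with the number of genes in brackets. Red and blue points are the 8 raised and 6 lowered genes, grey points were not called, and black bars are class medians, the highest of which is 0.40 for sugars and sugar phosphates.

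**Figure D2:**
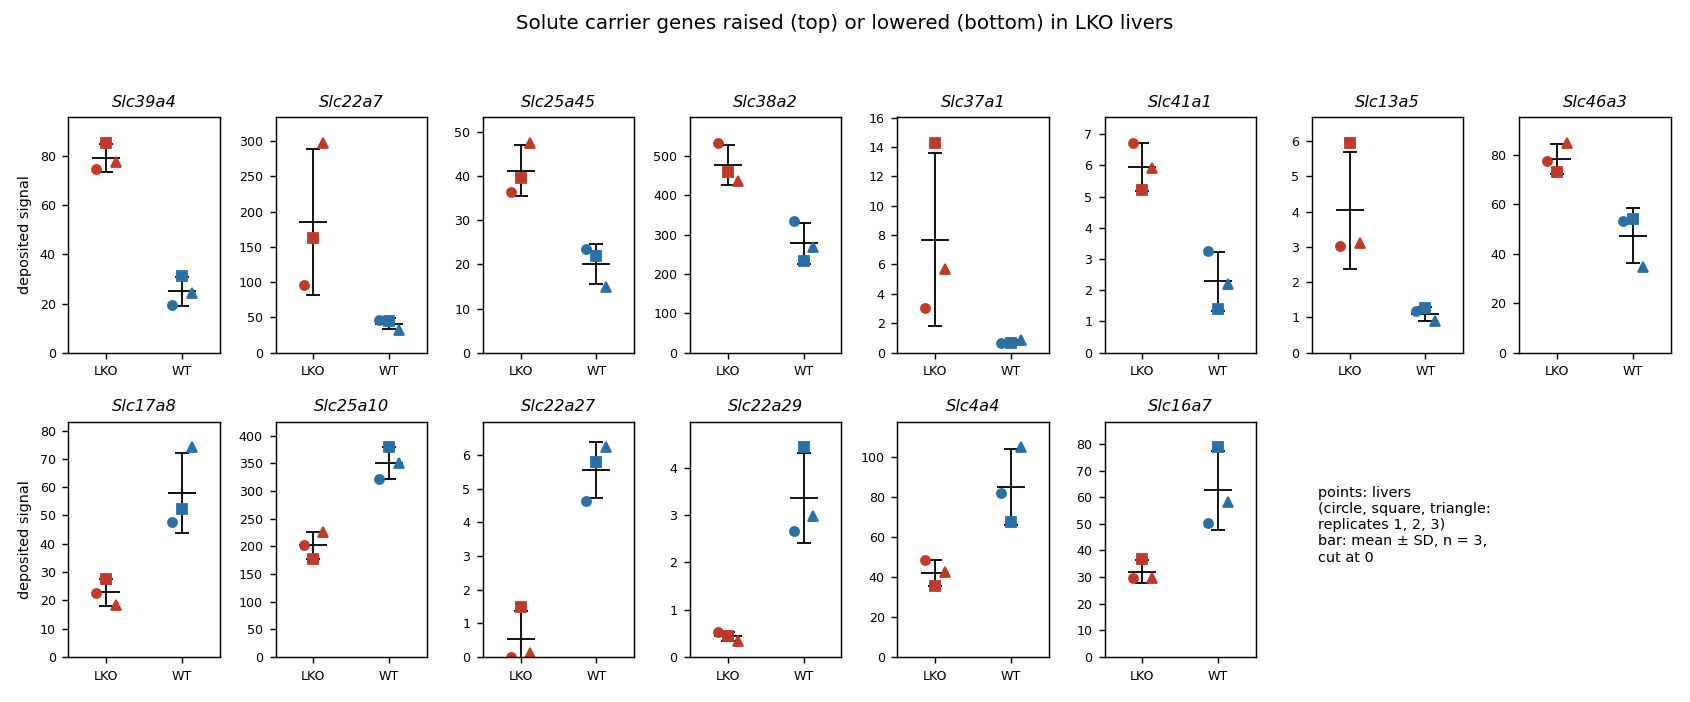
Deposited signal of the 14 called genes in each liver, LKO left and WT right in each panel, with mean and SD of 3 livers and bars drawn down to 0 at most. In all 14 panels the 3 LKO points lie on 1 side of the 3 WT points.

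Trace metal carriers were led by Slc39a4, the zinc importer ZIP4, which in humans is mutated in the zinc deficiency disorder acrodermatitis enteropathica. Slc39a4 (ENSMUSG00000063354, chromosome 15, 76612383 to 76617384, minus strand, GRCm38) had a signal of 74.5, 85.4 and 77.6 in LKO livers, against 19.5, 31.3 and 24.2 in WT livers. The lowest LKO liver lay well above the highest WT liver. Slc39a4 averaged 79.2 ± 5.63 in LKO and 25.0 ± 5.92 in WT (SD, n = 3 each), a ratio of 3.17. Its log2 fold change was 1.65 (SE 0.16, limma with Benjamini-Hochberg adjusted p = 0.00105), and the call held without each of the 6 libraries. Slc39a4 lies 9089 kb from the let-7b/c-2 locus on the same chromosome, and the nearest of the 191 genes is Slc25a17, 4346 kb away and not called.

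Slc41a1, a magnesium carrier studied in human cells, had a signal of 6.73, 5.21 and 5.90 in LKO livers, against 3.26, 1.39 and 2.21 in WT livers. The groups did not overlap, but these values rested on 35 to 53 reads in LKO and 11 to 25 reads in WT. Its log2 fold change was 1.11 (SE 0.24, limma with Benjamini-Hochberg adjusted p = 0.0400). Of the 6 limma fits without a library, the call held in the 1 without WT replicate 1, and the adjusted p reached 0.121 in the others. It was 0.0588 with library-total scaling.

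The other 21 genes for zinc, manganese, copper, iron and magnesium were not called, and the class median was 0.02. Slc39a5, a basolateral zinc importer, had a signal of 0, 0.149 and 1.00 in LKO livers, against 1.43, 2.52 and 3.20 in WT livers. The groups did not overlap, yet the log2 fold change of -1.32 did not pass (limma with Benjamini-Hochberg adjusted p = 0.0699), and the LKO values stand for 0, 1 and 9 reads. Slc31a1, the copper importer, had a log2 fold change of -0.11 with a 95% interval of -0.37 to 0.15. Slc39a7, which releases zinc from the endoplasmic reticulum, had 0.03 with an interval of -0.25 to 0.30. Both were the most abundant of the class per kb of exonic length, at 42.4 and 37.8 over all livers. Among the 11 Slc39 family genes in the 191, a family of zinc importers, Slc39a4 was the 1 called gene, and none of the 5 Slc30 family zinc exporters in the 191 was called. Slc39a14, Slc30a1 and Slc30a10, which were among the genes set aside, were not called either.

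Organic ion carriers held calls in both directions, all in the Slc22 family of organic anion and cation carriers. Slc22a7, the hepatic organic anion transporter OAT2, had a signal of 95.4, 163 and 298 in LKO livers, against 46.7, 44.5 and 32.7 in WT livers. The LKO livers differed among themselves far more than the WT livers, and the lowest LKO liver still lay above every WT liver. Slc22a7 averaged 185 ± 103 in LKO and 41.3 ± 7.55 in WT (SD, n = 3 each), a ratio of 4.49. The log2 fold change of Slc22a7 was 2.003 (SE 0.33, limma with Benjamini-Hochberg adjusted p = 0.0124), and the call held without each of the 6 libraries.

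Slc22a27 and Slc22a29 encode rodent members of the organic anion transporter branch, and they lie with Slc22a28 and Slc22a30 in 1 cluster on chromosome 19. Slc22a27 had a signal of 0, 1.496 and 0.113 in LKO livers, against 4.64, 5.79 and 6.25 in WT livers. No LKO liver reached the lowest WT liver, and the LKO values stand for 0, 10.1 and 1.01 estimated reads. Slc22a27 had a log2 fold change of -2.21 (SE 0.35, limma with Benjamini-Hochberg adjusted p = 0.00883), and the call held without each of the 6 libraries. It reached the mean of 1 through WT alone, and its ratio of means was 0.0964, or 0.0101 without LKO replicate 2. Slc22a29 had a signal of 0.530, 0.448 and 0.335 in LKO livers, against 2.67, 4.45 and 2.97 in WT livers. The groups did not overlap, with 3.01 to 4.02 estimated reads in LKO and 20.5 to 35.3 in WT. Slc22a29 also reached the mean of 1 through WT alone. Slc22a29 had a log2 fold change of -1.58 (SE 0.25, limma with Benjamini-Hochberg adjusted p = 0.00975), and the adjusted p was 0.0509 without WT replicate 2.

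The coding sequences of the 4 neighbours are near copies of each other. Slc22a27 and Slc22a29 matched at 97.3% of aligned coding bases, with up to 161 identical bases in a run, and Slc22a28 and Slc22a30 at 98.8%, with up to 431. Between the pairs the identity was 91.5% to 92.2%. The stretch below covers coding bases 48 to 107, the 60-base window with the most differing columns (16), with bases that differ between any of the 4 in capitals, from GENCODE M21 transcripts. It was picked for those differences, which over the whole alignment came to 165 of 1659 columns.
Slc22a27: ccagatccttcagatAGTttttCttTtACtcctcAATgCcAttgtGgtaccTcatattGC
Slc22a29: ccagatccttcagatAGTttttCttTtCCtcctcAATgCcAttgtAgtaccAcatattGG
Slc22a28: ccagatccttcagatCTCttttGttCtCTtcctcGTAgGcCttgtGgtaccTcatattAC
Slc22a30: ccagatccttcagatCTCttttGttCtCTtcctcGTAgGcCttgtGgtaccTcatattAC
Reads of such genes can be divided between copies by the counting, so the separate values of Slc22a27 and Slc22a29 are uncertain, and so are those of Slc22a28 and Slc22a30. The estimated reads of Slc22a27 and Slc22a29 were not whole numbers in every library, and neither were those of Slc25a10, while those of the other 11 called genes were.

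Slc22a28 had a signal of 19.1, 11.6 and 8.26 in LKO livers, against 10.01, 8.66 and 8.48 in WT livers. Slc22a30 had 134, 124 and 112 in LKO livers, against 110, 98.1 and 109 in WT livers. The groups overlapped for Slc22a28 and not for Slc22a30, and neither was called. Their log2 fold changes were 0.40 and 0.22, with 95% intervals of -0.16 to 0.97 and -0.03 to 0.46. RefSeq promoter windows of Slc22a27 and Slc22a29 matched at 47.9% of aligned bases, and those of Slc22a28 and Slc22a30 at 94.1%. The Slc22a29 window matched those of Slc22a28 and Slc22a30 at 66.1% and 65.3%, and the Slc22a27 window matched them at 42.5% and 44.0%. The Slc22a27 window opens with letters close to its coding stretch above, so its percentages may not compare upstream sequence alone.

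**Figure D3:**
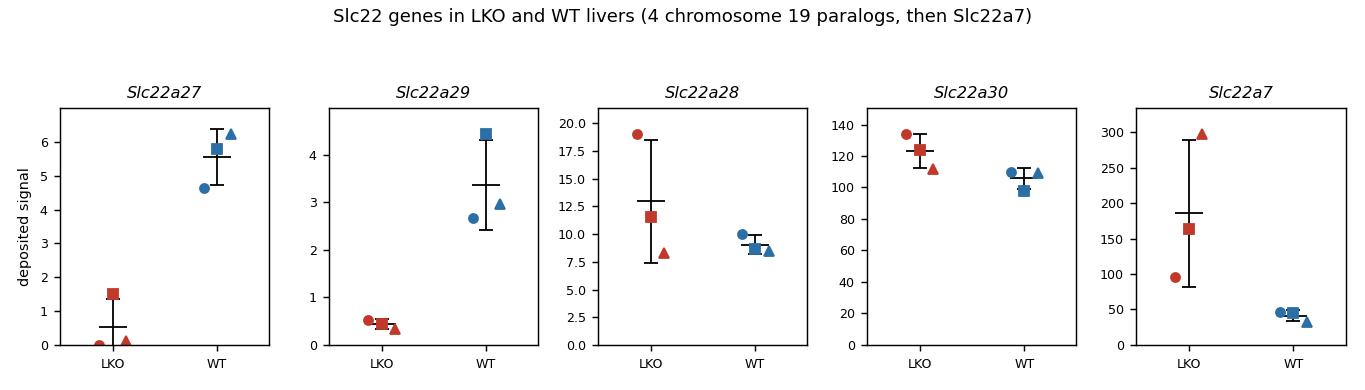
Deposited signal of 5 Slc22 genes in each liver, LKO left and WT right in each panel, with mean and SD of 3 livers and bars drawn down to 0 at most. Slc22a27 and Slc22a29 are lower in all LKO livers, Slc22a7 is higher in all of them at 95.4 to 298, and Slc22a28 and Slc22a30 were not called.

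Slc22a15 had the largest change not called among organic ion carriers, at -0.79 (limma with Benjamini-Hochberg adjusted p = 0.158). Of the 24 genes of the class 13 had a positive fold change, and the median was 0.01.

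Of 32 carriers of amino acids, peptides and osmolytes, 1 was raised and 1 was lowered. Slc38a2, the sodium-coupled neutral amino acid transporter SNAT2, had a signal of 533, 458 and 436 in LKO livers, against 334, 232 and 268 in WT livers. All 3 LKO livers lay above all 3 WT livers. Slc38a2 averaged 476 ± 51.1 in LKO and 278 ± 52.1 in WT (SD, n = 3 each), a log2 fold change of 0.79 (SE 0.15, limma with Benjamini-Hochberg adjusted p = 0.0215). The adjusted p was 0.0803 without WT replicate 2, 0.0647 without WT replicate 3, 0.0641 without LKO replicate 2, 0.0569 without LKO replicate 3 and 0.0548 with library-total scaling.

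The lowered gene of the class was Slc17a8, which encodes the vesicular glutamate transporter VGLUT3. Slc17a8 had a signal of 22.6, 27.7 and 18.2 in LKO livers, against 47.8, 52.1 and 74.2 in WT livers. The highest LKO liver lay below the lowest WT liver. Slc17a8 averaged 22.8 ± 4.77 in LKO and 58.0 ± 14.2 in WT (SD, n = 3 each), a log2 fold change of -1.30 (SE 0.19, limma with Benjamini-Hochberg adjusted p = 0.00764), and the call held without each of the 6 libraries. The other 6 members of the Slc17 family had log2 fold changes between -0.22 and 0.07, and none was called.

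Of the 32 genes of the class, 26 had a positive fold change (22 with library-total scaling), and the class median was 0.22, against -0.00 over all tested genes. Slc38a3, the glutamine transporter SNAT3 and the most abundant of the 191 genes per kb, had a signal of 2248, 1928 and 1852 in LKO livers, against 1650, 1878 and 598 in WT livers. WT replicate 3 lay far below the other 5 livers, the groups overlapped, and Slc38a3 was not called (log2 fold change 0.70, 95% interval -0.10 to 1.51). Without that library its log2 fold change was 0.19. Slc38a4, a liver amino acid carrier next in level in this class, had a log2 fold change of 0.27 with an interval of -0.06 to 0.60. Slc3a1, the rBAT subunit of the cystine and dibasic amino acid exchanger, had a signal of 67.4, 172 and 125 in LKO livers, against 60.0, 53.8 and 60.4 in WT livers. Its groups did not overlap, but LKO replicate 1 was close to the WT livers, and the log2 fold change of 0.95 did not pass (limma with Benjamini-Hochberg adjusted p = 0.0941). Without LKO replicate 1 the fold change was 1.32 with an adjusted p of 0.00198.

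ATF4 is the transcription factor of the amino acid response, and a list of carriers it is known to induce had 7 tested members. Of these, Slc38a2 was raised and the other 6 (Slc1a4, Slc1a5, Slc3a2, Slc6a9, Slc7a5 and Slc43a1) were not called, with log2 fold changes between -0.24 and 0.57 and a median of 0.31 over all 7. Slc1a5 had a signal of 0.791, 3.42 and 1.11 in LKO livers, against 0.781, 0.631 and 0.773 in WT livers. Its groups did not overlap, though LKO replicate 1 and WT replicate 1 were almost equal. Of 14 tested non-carrier genes of the amino acid response none was called, with a median of 0.10.

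The Slc25 family, most of whose members are mitochondrial carriers, was taken whole as the largest class, with 33 genes. Its median log2 fold change was -0.02, with 1 call in each direction. Slc25a10, the dicarboxylate carrier that exchanges malate and succinate for phosphate, had a signal of 202, 177 and 226 in LKO livers, against 323, 380 and 350 in WT livers. The highest LKO liver lay well below the lowest WT liver. Slc25a10 averaged 202 ± 24.5 in LKO and 351 ± 28.7 in WT (SD, n = 3 each), a ratio of 0.575. Slc25a10 had a log2 fold change of -0.80 (SE 0.12, limma with Benjamini-Hochberg adjusted p = 0.00850), and the call held without each of the 6 libraries. It had 58.4 ± 7.10 signal per kb in LKO and 101 ± 8.31 in WT, and the highest mean per kb over all 6 livers of the 14 called genes.

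Slc25a45, which in human cells has been linked to the mitochondrial uptake of methylated amino acids, had a signal of 36.4, 39.6 and 47.6 in LKO livers, against 23.6, 21.8 and 14.9 in WT livers. The groups did not overlap. Its log2 fold change was 1.02 (SE 0.18, limma with Benjamini-Hochberg adjusted p = 0.0171), with 0.0559 without LKO replicate 2 and 0.0705 without LKO replicate 3. Its let-7 site is the one shown above.

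The most abundant mitochondrial carriers per kb of exonic length were not called. Slc25a47, a carrier found mainly in hepatocytes, averaged 889 ± 78.2 in LKO and 902 ± 206 in WT (SD, n = 3 each), with a log2 fold change of 0.00 and a 95% interval of -0.38 to 0.38, and the sign turned with other scalings. Slc25a5, an ADP/ATP carrier, averaged 448 ± 19.5 in LKO and 489 ± 9.79 in WT (SD, n = 3 each), with an interval of -0.36 to 0.10. Slc25a12, the aspartate/glutamate carrier aralar, missed the threshold narrowly. It had a signal of 20.4, 26.1 and 26.3 in LKO livers, against 17.7, 12.9 and 10.7 in WT livers. The groups did not overlap, and the log2 fold change was 0.79 (limma with Benjamini-Hochberg adjusted p = 0.0539), with 0.0292 without WT replicate 1 and 0.0394 without LKO replicate 1.

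Of 10 carriers of mono-, di- and tricarboxylates, 1 was raised and 1 was lowered. Slc13a5, the plasma membrane citrate transporter, had a signal of 3.03, 5.95 and 3.12 in LKO livers, against 1.17, 1.26 and 0.884 in WT livers. All LKO livers lay above all WT livers, on 23 to 40 reads in LKO and 8 to 10 reads in WT. Slc13a5 had a log2 fold change of 1.21 (SE 0.27, limma with Benjamini-Hochberg adjusted p = 0.0406). Of the 6 limma fits without a library, the call held in the 1 without LKO replicate 1, and the adjusted p reached 0.132 in the others. The call was lost with limma-voom, at an adjusted p of 0.0616, and with a pseudocount of 5, at 0.0545. Slc13a3, the related dicarboxylate carrier, had a signal of 24.3, 45.4 and 45.0 in LKO livers, against 18.4, 21.95 and 21.7 in WT livers, and did not pass (log2 fold change 0.81, limma with Benjamini-Hochberg adjusted p = 0.0860). Its groups did not overlap, and without LKO replicate 1 the adjusted p was 0.00338.

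Slc16a7, the monocarboxylate transporter MCT2 for pyruvate, lactate and ketone bodies, had a signal of 29.5, 36.9 and 29.7 in LKO livers, against 50.4, 79.0 and 58.3 in WT livers. The highest LKO liver lay below the lowest WT liver. Slc16a7 had a log2 fold change of -0.93 (SE 0.17, limma with Benjamini-Hochberg adjusted p = 0.0190), with 0.0595 without WT replicate 2 and 0.0780 without LKO replicate 3. Slc16a1, the monocarboxylate transporter MCT1, had a signal of 29.9, 43.8 and 33.0 in LKO livers, against 30.5, 39.5 and 73.5 in WT livers. WT replicate 3 was the high liver, the groups overlapped, and without that library the log2 fold change was 0.02, against -0.34 with all 6. Slc16a12, the most abundant carboxylate carrier per kb at 16.7 over all livers, overlapped between the groups with a log2 fold change of 0.10.

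Carriers of sugars and sugar phosphates had the highest class median, 0.40, with 10 of 12 fold changes positive under all 3 scalings and 1 call. Slc37a1, a glucose 6-phosphate exchanger of the endoplasmic reticulum, had a signal of 3.03, 14.3 and 5.68 in LKO livers, against 0.651, 0.631 and 0.884 in WT livers. All LKO livers lay above all WT livers, LKO replicate 2 was the highest, and the values rested on 23 to 96 reads in LKO and 5 to 8 reads in WT. Slc37a1 reached the mean of 1 through LKO alone. The ratio of means was 10.6, or 6.04 without LKO replicate 2, and the log2 fold change was 2.11 (SE 0.41, limma with Benjamini-Hochberg adjusted p = 0.0241). The adjusted p was 0.0698, 0.0895 and 0.0531 without WT replicates 1, 2 and 3 and 0.0711 without LKO replicate 3, and limma-voom gave 2.98 on the log2 scale with 0.0805. With a pseudocount of 5 the limma with Benjamini-Hochberg adjusted p was 0.0590. Slc37a4, the glucose 6-phosphate transporter that feeds hepatic glucose release, had a signal of 319, 415 and 486 in LKO livers, against 278, 326 and 224 in WT livers. The groups overlapped and the log2 fold change of 0.55 did not pass (limma with Benjamini-Hochberg adjusted p = 0.136). Slc2a4, the insulin-responsive glucose transporter GLUT4, had 2.37, 13.5 and 8.91 in LKO livers, against 1.82, 4.92 and 0.110 in WT livers, and its groups overlapped. Slc45a3, next in level to Slc37a4 per kb, overlapped as well, with 60.7 to 98.0 in the LKO livers and 63.9 to 146 in the WT livers, the highest being WT replicate 3.

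Among carriers of inorganic ions Slc4a4, the sodium bicarbonate cotransporter NBCe1, was the called gene. Slc4a4 had a signal of 48.5, 35.4 and 42.3 in LKO livers, against 81.8, 67.6 and 105 in WT livers. The highest LKO liver lay below the lowest WT liver. Its log2 fold change was -0.98 (SE 0.17, limma with Benjamini-Hochberg adjusted p = 0.0167), with 0.0629 without LKO replicate 2 and 0.0587 without LKO replicate 3. The other 17 genes of the class were not called, while 13 of the 18 fold changes were positive (11 with library-total scaling) and the class median was 0.17. Slc26a1, a sulfate and oxalate exchanger and the most abundant of the class per kb, had a signal of 256, 324 and 273 in LKO livers, against 222, 208 and 188 in WT livers. Slc8b1, the mitochondrial sodium/calcium exchanger and a holder of the let-7 site, had 61.6, 74.3 and 73.4 in LKO livers, against 48.2, 55.6 and 50.3 in WT livers. For neither gene did the groups overlap, and neither passed (log2 fold changes 0.46 and 0.43, limma with Benjamini-Hochberg adjusted p = 0.0813 and 0.0863). Slc26a6 had the largest change not called, at 0.77, and its groups overlapped.

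Among carriers of vitamins, choline, heme and acetyl-CoA, Slc46a3, a lysosomal membrane transporter, had a signal of 77.4, 73.1 and 85.0 in LKO livers, against 53.3, 54.1 and 34.5 in WT livers. All LKO livers lay above all WT livers. Slc46a3 had a log2 fold change of 0.75 (SE 0.17, limma with Benjamini-Hochberg adjusted p = 0.0465). It was the 1 call of the 14 that was lost without any of the 6 libraries, with adjusted p between 0.0636 and 0.156, and it was lost with library-total scaling at 0.0778. Slc23a1, the vitamin C transporter, had a signal of 63.7, 84.7 and 107 in LKO livers, against 54.0, 64.7 and 42.0 in WT livers, with overlap between the groups and no call.

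The classes without a call were nucleotide sugar carriers, nucleoside carriers and the genes named after a carrier. The 19 genes of the Slc35 family, most of which bring nucleotide sugars into the Golgi and endoplasmic reticulum, had log2 fold changes between -0.59 and 0.48 and a median of 0.01. Slc35a5 was lowest, with a signal of 9.50, 12.2 and 9.02 in LKO livers, against 16.1, 17.03 and 14.5 in WT livers. Its groups did not overlap, but it did not pass (limma with Benjamini-Hochberg adjusted p = 0.0784). Slc35b1 and Slc35e1 were the most abundant of the family per kb, with log2 fold changes of -0.19 and 0.10. Slc29a1, the equilibrative nucleoside transporter ENT1, averaged 304 ± 13.9 in LKO and 269 ± 52.8 in WT (SD, n = 3 each) with overlap between the groups. Slc43a3, a nucleobase carrier, and Slc29a3 had log2 fold changes of 0.23 and -0.29, and the scaffold genes Slc9a3r1 and Slc9a3r2 had 0.22 and 0.24.

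The levels per kb of exonic length are in the same unit for all genes and can be set beside each other only roughly. The length counts every annotated exon of a gene, so a gene with much annotated sequence can have too low a level. Slc38a3 had the highest mean over all livers at 321 signal per kb, followed by Slc25a47 at 300 and Slc25a5 at 285, and Slc38a4 stood at 261. Slc38a3 averaged 381 ± 39.8 signal per kb in LKO and 261 ± 129 in WT, and Slc25a47 298 ± 26.2 in LKO and 302 ± 69.1 in WT (SD, n = 3 each). The order of the pair turned between the groups, and in WT they lie within each other's spread. The called gene Slc25a10 averaged 80.0 signal per kb over all livers and Slc22a7 54.0. In LKO livers Slc22a7 averaged 88.3 ± 49.1 signal per kb, against 19.7 ± 3.59 in WT livers.

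Beyond the called genes, 20 genes had an adjusted p between 0.05 and 0.15, a range chosen after the values were seen. Of these, 15 were higher and 5 lower in LKO, and in 18 (90.0%) the groups did not overlap. Over all tested genes in that range, 369 were higher and 353 lower, and in 95.4% the groups did not overlap, a share that the choice of low p largely sets. Slc41a2, a magnesium carrier and relative of Slc41a1 named here after its values were seen, had a signal of 49.9, 53.7 and 40.4 in LKO livers, against 20.6, 14.4 and 36.5 in WT livers. Its groups did not overlap, WT replicate 3 being close to the LKO livers, and its log2 fold change was 1.07 (limma with Benjamini-Hochberg adjusted p = 0.0694). Leaving out LKO replicate 1 moved the number of raised solute carrier genes to 14, against 8 with all libraries.

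**Figure D4:**
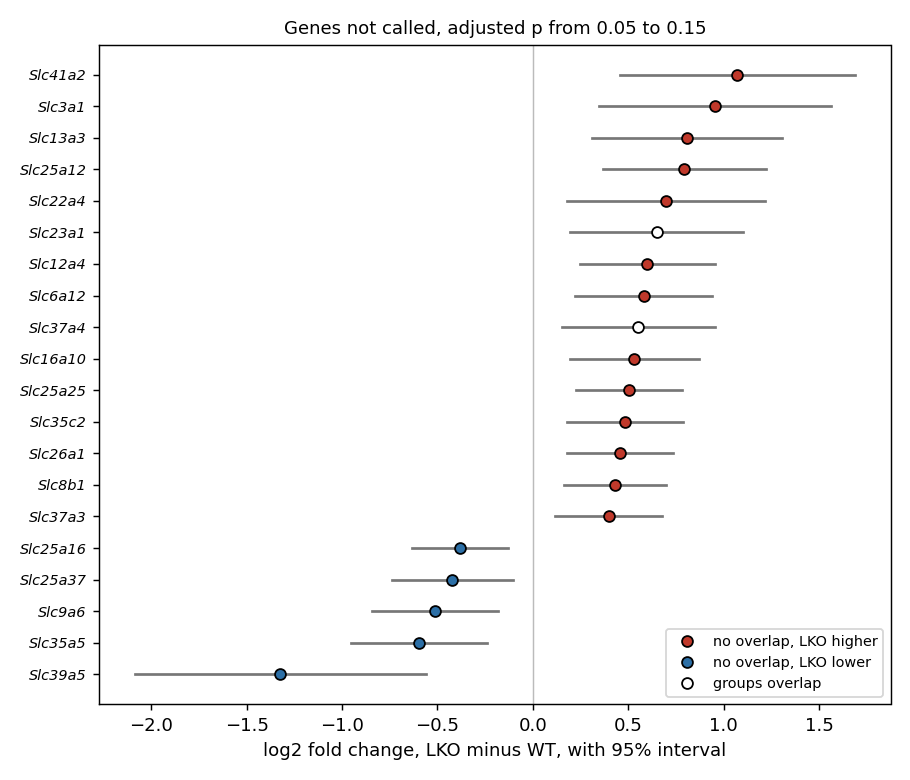
Log2 fold change (LKO minus WT) with its 95% interval for the 20 genes with an adjusted p between 0.05 and 0.15, a range and set of names chosen after the values were seen. Filled points mark the 18 genes whose groups did not overlap, a share of 90.0% against 95.4% of all tested genes in that range, and 15 of the 20 points lie to the right of 0.

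Outside the 191 genes, other carriers were counted with lists chosen while earlier results were known. Of the 16 solute carrier genes set aside, none was raised and Slc27a1 and Slc25a20 were lowered, with a median log2 fold change of 0.05. These calls made 12.5% of the 16, where 3.51% of all tested genes were called. Of 35 other membrane transport genes tested, 3 were raised (Aqp1, Abca1 and Slco1a1) and 2 were lowered (Abcc3 and Mpc1), with a median of -0.01. That is 14.3% called, against the same 3.51%. None of 10 tested partner and regulator genes of carriers was called, with a median of 0.01.

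A set of 5 short motifs was searched on both strands in RefSeq promoters, and 11 of the 14 called genes had such a promoter. Slc39a4, Slc22a7 and Slc16a7 had none and were not searched. A gene was counted if any of its promoters matched, while the percentages are shares of single promoters. The metal response core TGCNCNC was in 51.0% of 32851 promoters and in those of 7 of the 11 genes. The nuclear receptor core AGGTCA was in 16.3% and in 3 of the 11, and the STAT motif TTCNNNGAA in 8.30% and in 1 of the 11. The cyclic AMP motif TGACGTCA, in 1.79%, and the amino acid response core TGATGNAA, in 3.97%, were in none of the 11. A match is a description of these letters in these windows.

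Exons of other genes on the opposite strand covered 9.57% of the exonic bases of Slc13a5, 8.31% of Slc37a1, 6.60% of Slc25a10 and 1.51% of Slc16a7, and none of the other 10 called genes. The library kit keeps strand, but the strand setting of the counting is not given in the sources used here, so reads in those overlaps are uncertain.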

How the data were processed

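Poly(A) RNA of 3 LKO and 3 WT livers was sequenced from stranded libraries, per the labels' protocols. RSEM 1.2.22, STAR 2.5.1, Trimmomatic 0.36, Picard 1.84, bcl2fastq 2.17, edgeR and build mm10 are listed, without roles, per the submitters' processing notes. The authors deposited 1 expression signal per gene and liver, whose unit the files do not name. From its steps the signal behaves as an estimated count times 1 factor per library, and 3 reads equal a signal of 0.331 to 0.447. Because 82.0% to 83.1% of positive values were whole within 0.005 of a read, no count model was run on whole reads. Identifiers were matched to GENCODE M21 (13977 of 14002), which gave coordinates, exonic lengths and transcripts.

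Genes with a mean signal of at least 1 were fitted with limma 3.58.1 in R 4.3.3 on log2(signal + 1), with a mean-variance trend and no block, and p-values were adjusted by Benjamini-Hochberg over 11168 genes. The procedure was tested on simulated data in which only genes with a mean signal of at least 5 were changed. That test does not cover changes in genes below that mean. The 757 genes at 0 in every liver were left out. Alternatives were median-of-ratios and library-total scaling, no filter and a filter of 5, pseudocounts of 0.1 and 5, no trend, limma-voom, a replicate block, and each library left out. The members, lists and motifs were chosen with earlier results of these data known. Named genes are the called genes, in each substrate class the 2 most abundant per kb and the largest change not called, those next to the mean of 1, and carriers induced by ATF4. Some genes that this rule takes are counted but not reported here by name. Other names are said to be chosen later, and the carrier lists outside the 191 genes name their called members. Same-numbered livers correlated at 0.046, 0.032 and 0.054 in their deviations, so the numbers were not taken as pairs.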

Additional observations from a re-analysis of the deposited data

How the results depend on the processing

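Of the 14 called genes, 5 kept their call without each of the 6 libraries (Slc39a4, Slc22a7, Slc17a8, Slc25a10 and Slc22a27), and none turned its direction under any alternative run. The number of raised solute carrier genes was 8 as reported, 7 with a pseudocount of 0.1, 6 with no filter, a pseudocount of 5 or limma-voom, 5 with library-total scaling, 4 with a filter of 5 and 3 with no variance trend, and 2 to 14 with a library left out. The number lowered was 6 as reported and 4 to 6 with a library left out. Over all genes, 203 were raised and 189 lowered as reported, 98 and 97 with no trend, and 76 to 277 and 79 to 263 with a library left out. No variance trend lost Slc38a2, Slc4a4, Slc25a45, Slc16a7, Slc37a1, Slc46a3 and Slc41a1, with adjusted p of 0.0536 to 0.110. Slc46a3 and Slc41a1 were lost with no filter at 0.0647 and 0.0584, Slc46a3 with a pseudocount of 0.1 at 0.0509 and with a filter of 5 at 0.0523, and Slc13a5 and Slc37a1 with a pseudocount of 5 and with limma-voom. The filter of 5 leaves Slc37a1, Slc41a1, Slc13a5, Slc22a27 and Slc22a29 untested. The cause of the other moves was not tested.

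Signs turned only in genes that were not called. Slc25a47 was -0.0013 with median-of-ratios scaling, -0.0023 with limma-voom, -0.068 with library-total scaling and -0.146 to 0.174 with a library left out. Slc39a7 was -0.042 with library-total scaling and -0.076 to 0.101 with a library left out. In the same fits without a library, Slc22a18 ranged from -0.116 to 0.059, Slc16a1 from -0.605 to 0.016, Slc16a12 from -0.228 to 0.292, Slc35b1 from -0.353 to 0.043 and Slc45a3 from -0.525 to 0.066. With the replicate block 8 solute carrier genes were raised and 8 lowered, 7 and 6 of them shared with the reported calls, and Slc46a3 was lost at an adjusted p of 0.0522. Each liver correlated best with the other group's liver of its own number, a hint from the data and not from the design. Genes under about 1 signal rest on a few reads, which limits Slc22a27, Slc22a29, Slc37a1, Slc13a5 and Slc39a5.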
